A study of Homo sapiens with 11 samples.

Results

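PHF19 overexpression was compared with empty vector in ARP1, a widely used human myeloma cell line of IgA kappa type, over the genes that were detected without a gap. The comparison used 5 of the 11 libraries of the series and 8665 of the 11062 genes in its table: those with an abundance above 0 in all 5 libraries and of at least 1 in at least 2 of them. Both groups were infected with lentivirus that had been packaged in HEK293T cells from PCDH plasmids, which held either the PHF19 open reading frame (n = 2, replicates 1 and 2) or no insert (n = 3, replicates 3, 4 and 5). The PHF19-overexpressing cells were sorted before RNA extraction; nothing says whether the empty vector cells were sorted as well. Description labels carry the final letter F in the overexpression group and S in the control group, and what these letters stand for cannot be told apart from the overexpression. Nothing states that the replicates were separate cultures, so p-values measure only the spread between these libraries, which may be technical. Abundances are of FPKM type, scaled by gene length and depth, although the file leaves the unit unnamed. Differences are of log2(abundance + 1), which understates the change of low genes.

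PHF19 is a Polycomb-like accessory subunit of Polycomb repressive complex 2 (PRC2). Its Tudor domain binds trimethylated H3K36, and the complex, through its catalytic subunit EZH2, methylates H3K27 and so holds developmental genes silent. In myeloma, PRC2 activity is known to be altered by chromosomal translocations that raise the H3K36 methyltransferase NSD2. The series title links PHF19 to growth, drug resistance and EZH2 phosphorylation, so genes of Polycomb, the cell cycle, apoptosis and kinase signalling were listed.

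PHF19 itself was higher in both overexpression libraries, as labelled. Its abundance was 227 and 213 in the overexpression libraries and 111, 119 and 115 in the empty vector libraries, so the groups did not overlap. EZH2 was at 54.3 and 50.7 against 60.2, 57.4 and 46.0, and SUZ12, another PRC2 core subunit, was at 52.6 and 45.9 against 55.6, 56.2 and 42.0; for both genes the groups overlapped.

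The plasma cell identity of the line was visible in all 5 libraries. SDC1, which encodes the plasma cell surface proteoglycan CD138, was at 260 and 267 against 160, 233 and 291, and XBP1, the secretory transcription factor, was at 584 and 570 against 396, 495 and 664. Of 15 plasma cell markers, 12 were in the table and 8 were members. Of 10 B cell markers, 5 were in the table and 1, PAX5, was a member, at 1.56 to 2.09. Of 13 T and NK cell markers, 1 was in the table, and its level was 0.409 to 1.67.

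Empty vector replicate 5 stood apart from the other controls before any group was compared. The first principal component, with 49.7% of the variance, placed empty vector replicates 3 and 4 on one side and replicate 5 on the other, beside the overexpression libraries. The second, with 30.4%, placed replicate 5 and the overexpression libraries at its opposite ends. Across members, Pearson's r was 0.987 between the overexpression libraries and 0.984 between empty vector replicates 3 and 4. Replicate 5 gave 0.943 and 0.952 with those controls and 0.965 with each overexpression library; these correlations are across genes of 1 table, which are not independent replicates. In replicate 5, 363 members were at least 2-fold higher and 264 at least 2-fold lower than the mean of replicates 3 and 4, while replicates 3 and 4 differed by that much in 141 members.

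**Figure D1:**
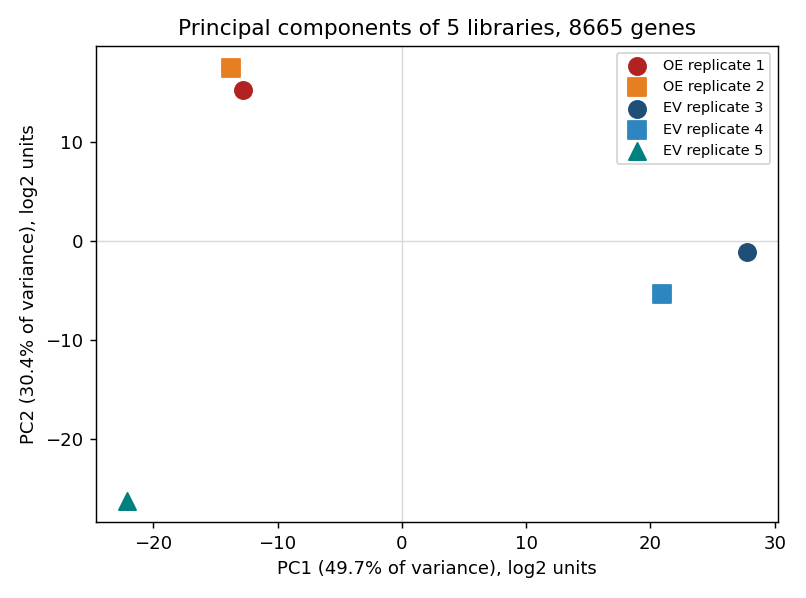
Principal components of log2(abundance + 1) over the 8665 members; each point is 1 library, the x axis is the first component and the y axis the second, in log2 units, with the share of variance in the axis labels. Empty vector replicate 5 (triangle) lies at -22.1 on the first component, where replicates 3 and 4 lie at 27.7 and 20.9 and the overexpression libraries at -12.8 and -13.8.

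Overexpression replicate 2 carried transcripts that mark myeloid cells. Of 12 myeloid markers, 6 were in the table and none was a member. Their summed abundance was 72.2 in overexpression replicate 2, 1.37 in overexpression replicate 1, and 0 to 0.0572 in the empty vector libraries. S100A9 and S100A8, calcium-binding proteins of neutrophils and monocytes, were at 27.2 and 24.3 in that library, and MPO, the neutrophil peroxidase, was at 6.70. Erythroid markers, of which 3 of 11 were in the table, summed to 14.6 and 15 with overexpression and to 6.15, 4.44 and 8.71 with empty vector, and their part in the results was not tested. The source of the myeloid transcripts is unknown, and their part in the results below was not tested. CD68 and LYZ, of the same markers, were also listed in the scramble control libraries of the series, at 3.13 to 3.83 and 0.9 to 1.71. S100A8, S100A9, MPO and TYROBP had no value there. Values of overexpression replicate 1 are given beside those of replicate 2 throughout. In bulk RNA, fewer cells of a type and less RNA per cell cannot be told apart.

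With all 5 libraries, 0 of 8665 members passed limma's test at an adjusted p of 0.05, in either direction (0% called). The smallest adjusted p was 0.101. At an unadjusted p under 0.05 there were 1201 members (13.9%), of which 807 were higher (9.31%) and 394 lower (4.55%) with overexpression. Groups did not overlap in 2023 members with higher values (23.3%) and in 1039 with lower values (12.0%). Of these, 75 were at least 2-fold higher and 55 at least 2-fold lower. The median log2 difference over all members was 0.07.

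Without empty vector replicate 5, limma called 1339 members, 950 higher (11.0%) and 389 lower (4.49%), of which 174 and 62 differed at least 2-fold. The split depended on the scaling: quantile normalisation of the same 4 libraries gave 666 higher and 615 lower, and median-of-ratios scaling gave 701 and 538. In 667 of the 950 and 213 of the 389, the groups still did not overlap once replicate 5 was put back. In 389 of the 1339, replicate 5 lay beyond the mean of the overexpression libraries. With all 5 libraries no member of any gene list below passed. For each list, the count of members whose groups did not overlap is over all 5 libraries and is to be read against 23.3% (higher) and 12.0% (lower) of all members; the count that passed is without empty vector replicate 5, against 11.0% and 4.49%.

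With all 5 libraries, immediate early genes had the highest median difference (0.76) of the 30 gene lists with at least 5 members. HIF and hypoxia targets followed (0.58). Without empty vector replicate 5 these medians were 0.96 and 0.95, and with the length trend described below also removed they were 0.83 and 0.91. Immediate early genes are induced within minutes of growth factor, stress or calcium signals. They encode AP-1 subunits, EGR and KLF factors and feedback regulators. Serum response factor and CREB drive many of them, through CArG boxes and cAMP response elements (CREs) in their promoters. All 20 members of the immediate early list were higher on average with overexpression, although KLF6 and MAFF changed sign with the scaling. The promoters of the 5 with the largest differences are shown because these genes had the widest gap between the groups. Each is the 250 bases before the RefSeq transcription start (GRCh38.p14), on the gene's strand, with the CRE core TGACG on either strand and CArG boxes in capitals.
EGR1, chr5:138465229-138465478, plus strand: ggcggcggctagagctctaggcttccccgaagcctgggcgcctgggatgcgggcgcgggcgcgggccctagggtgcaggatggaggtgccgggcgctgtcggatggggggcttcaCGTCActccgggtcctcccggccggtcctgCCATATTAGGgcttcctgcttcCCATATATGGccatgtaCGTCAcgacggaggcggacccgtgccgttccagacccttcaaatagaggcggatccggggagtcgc
FOS, chr14:75278578-75278827, plus strand: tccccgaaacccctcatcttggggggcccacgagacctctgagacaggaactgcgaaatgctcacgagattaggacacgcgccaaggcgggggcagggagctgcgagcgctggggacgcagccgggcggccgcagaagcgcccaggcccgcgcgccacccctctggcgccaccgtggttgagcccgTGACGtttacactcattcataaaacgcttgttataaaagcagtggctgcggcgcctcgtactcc
FOSB, chr19:45467746-45467995, plus strand: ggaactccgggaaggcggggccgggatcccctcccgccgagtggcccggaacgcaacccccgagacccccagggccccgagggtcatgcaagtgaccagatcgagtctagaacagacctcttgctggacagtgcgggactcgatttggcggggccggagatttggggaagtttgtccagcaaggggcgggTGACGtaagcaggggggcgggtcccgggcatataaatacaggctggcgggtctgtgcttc
DUSP1, chr5:172771196-172771445, minus strand: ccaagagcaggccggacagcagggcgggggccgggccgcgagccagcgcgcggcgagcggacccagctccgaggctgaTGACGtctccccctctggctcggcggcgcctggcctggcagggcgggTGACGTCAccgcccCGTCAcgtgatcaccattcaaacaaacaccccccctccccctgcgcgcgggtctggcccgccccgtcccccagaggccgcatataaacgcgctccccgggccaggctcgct
JUN, chr1:58784048-58784297, minus strand: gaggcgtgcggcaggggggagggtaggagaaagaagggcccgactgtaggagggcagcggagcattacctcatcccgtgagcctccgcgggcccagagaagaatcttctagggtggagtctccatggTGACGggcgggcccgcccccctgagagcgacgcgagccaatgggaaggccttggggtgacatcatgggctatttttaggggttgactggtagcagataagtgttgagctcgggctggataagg

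All 5 windows hold the CRE core, and EGR1 also holds 2 CArG boxes; the palindrome TGACGTCA, as in DUSP1, counts as 2 overlapping cores. The table of promoters gave 22 windows for 18 of the 20 immediate early genes. The core TGACG occurred in 12 of the 22 windows, in 27.6% of 9716 windows of members and in 21.2% of all 35116 windows. The CArG box occurred in 2 of the 22, both genes with 2 boxes (EGR1 and SRF), in 1.07% of members' windows and in 1.16% of all. A match describes letters in this window, and no factor's binding was measured.

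FOS, the AP-1 subunit, was at 53.8 and 58.7 with overexpression and at 3.26, 0.501 and 2.0 with empty vector. Both overexpression libraries lay far above all 3 controls, and the log2 difference was 4.42 (SE 0.432, limma adjusted p = 0.101). FOSB, a second FOS family member, was at 20.1 and 16.0 against 3.20, 0.965 and 1.61 (log2 difference 2.77, SE 0.338, limma adjusted p = 0.124). JUN, the partner of FOS in AP-1, was at 42.4 and 45.6 against 3.21, 2.66 and 11.5. Here replicate 5 lay between the other controls and the overexpression libraries; the log2 difference was 2.96 with it (limma adjusted p = 0.203) and 3.52 without it (0.00742).

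EGR1, a zinc finger factor downstream of ERK signalling, was at 21.6 and 22.1 against 1.77, 2.48 and 3.81 (log2 difference 2.67, SE 0.254, limma adjusted p = 0.101). DUSP1, the phosphatase that switches off p38, JNK and ERK, was at 46.2 and 50.1 against 6.76, 2.86 and 5.94 (log2 difference 3.05, SE 0.320, limma adjusted p = 0.115). In both genes the overexpression libraries lay close to each other, and none of the 3 controls came near them.

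JUND, IER2, JUNB and ZFP36 showed the same order with smaller gaps. JUND was at 37.8 and 42.2 against 13.0, 15.5 and 23.9, IER2 at 64.6 and 71.5 against 34.0, 34.4 and 44.6, and JUNB at 65.9 and 72.0 against 32.5, 38.5 and 46.2. ZFP36, which marks AU-rich mRNAs for decay, was at 39.9 and 46.5 against 24.5, 19.9 and 35.9. In each of these 4 genes empty vector replicate 5 was the highest control.

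In other genes of the list, the place of replicate 5 varied. PPP1R15A, which returns the translation factor eIF2 to its active state, was at 67.4 and 71.8 against 15.5, 20.9 and 64.2. ATF3, a stress-induced factor, was at 23.9 and 23.3 against 3.72, 6.28 and 13.5. BTG2, an antiproliferative gene, was at 44.1 and 47.8 against 25.6, 28.0 and 58.3, so that replicate 5 was the highest of all 5 libraries. MYC was at 237 and 252 against 182, 198 and 182, groups that did not overlap, with a log2 difference of 0.38 (SE 0.128, limma adjusted p = 0.304).

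Of the 20 immediate early genes, 16 had groups that did not overlap, all with higher values (against 23.3% of all members), and none passed the test with all 5 libraries. Without empty vector replicate 5, 14 of 20 passed, all higher (against 11.0% of members), and 14 still passed when the trend with transcript length was removed from the same 4 libraries. Their median log2 difference was 0.76 with all libraries, 0.96 without empty vector replicate 5 and 0.71 without overexpression replicate 2, beside 0.07 for all members. Their median in empty vector replicate 5 was 0.44 above replicates 3 and 4. Overexpression replicate 1 gave FOS, JUN and EGR1 at 53.8, 42.4 and 21.6, close to the 58.7, 45.6 and 22.1 of replicate 2. The part of the myeloid transcripts of replicate 2 in these levels was not tested.

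**Figure D2:**
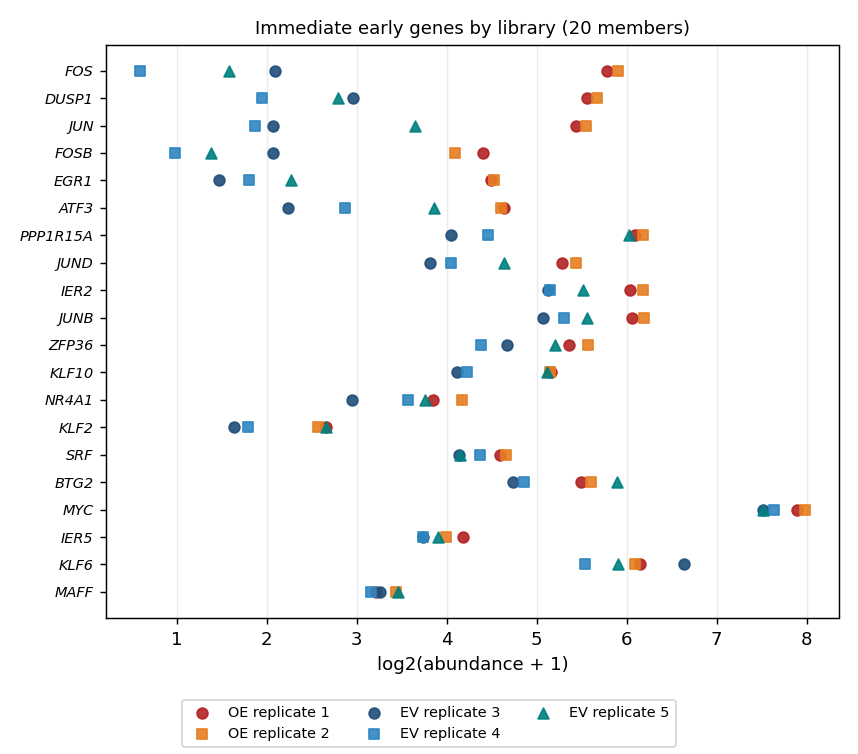
The 20 immediate early genes, ordered by log2 difference; each symbol is 1 library and the x axis is log2(abundance + 1). FOS, DUSP1, JUN, FOSB and EGR1 show the widest gap between the overexpression libraries (red circle, orange square) and the 3 controls, and BTG2 shows empty vector replicate 5 (triangle) above all other libraries.

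The 15 members named as higher were picked by rank of limma p among those whose groups did not overlap. All had a limma adjusted p from 0.101 to 0.179 with all 5 libraries. All passed without empty vector replicate 5, but that fit reuses libraries on which they were picked. The 15 were CCDC57, EGR1, FOS, DUSP1, UPP1, TOMM7, ZFP36L2, CTXN1, FOSB, PHF19, SERPINB6, ZYX, ANXA1, CITED2 and CEBPD. CCDC57, a centrosomal coiled-coil gene, came first, at 25.6 and 19.3 against 4.48, 3.74 and 4.99, a log2 difference of 2.11 (SE 0.193, limma adjusted p = 0.101).

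ANXA1, which encodes the phospholipid-binding protein annexin A1, was at 45.3 and 46.4 against 14.1, 6.12 and 6.30 (log2 difference 2.35, SE 0.353, limma adjusted p = 0.158). SERPINB6, an intracellular protease inhibitor, was at 32.8 and 35.7 against 11.2, 9.52 and 15.3. CEBPD, a transcription factor of the acute phase response, was at 6.76 and 9.41 against 3.08, 3.14 and 2.74. In these 3 genes each overexpression library lay at least 2-fold above the highest control.

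Several other genes differed by close to 2-fold with little spread. UPP1, uridine phosphorylase, was at 27.2 and 28.9 against 10.9, 11.8 and 11.5 (log2 difference 1.22, SE 0.138, limma adjusted p = 0.115). TOMM7, a subunit of the mitochondrial protein import pore, was at 317 and 355 against 140, 136 and 157. ZFP36L2, an mRNA decay factor related to ZFP36, was at 123 and 112 against 54.5, 49.8 and 49.8. CTXN1, a small membrane protein gene, was at 28.0 and 29.1 against 12.5, 13.2 and 12.8. CITED2, a CBP/p300-binding regulator, was at 60.7 and 59.7 against 28.9, 30.3 and 34.2. ZYX, the focal adhesion protein zyxin and a target of serum response factor, was at 65.9 and 69.1 against 32.5, 32.9 and 37.9. The control spread in these genes was small beside the gap, and empty vector replicate 5 lay with the other controls.

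The 15 named as lower were UNKL, SASH3, TAF8, DYNC1H1, HUWE1, GPRIN3, SDHAP1, UBR4, SSR1, RNF213, MKI67, HERC2P2, MIR146A, MRPL17 and HERC1. These were picked in the same way. Their limma adjusted p was likewise 0.101 to 0.179 with all 5 libraries, and all 15 passed when refitted without empty vector replicate 5. SDHAP1 and HERC2P2 are pseudogenes that share reads with close copies, so their values are uncertain. The MIR146A value is that of the gene's row in an RNA library, not of a mature miRNA.

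UNKL, a zinc finger gene, was at 5.40 and 5.68 against 17.4, 16.8 and 16.8 (log2 difference -1.46, SE 0.137, limma adjusted p = 0.101). SASH3, an adaptor of lymphocyte signalling, was at 3.97 and 3.19 against 17.7, 18.2 and 12.4 (log2 difference -1.89, SE 0.217, limma adjusted p = 0.115), the largest negative difference of the 15. TAF8, a subunit of the general transcription factor TFIID, was at 7.67 and 6.78 against 19.4, 17.5 and 20.3. In all 3 genes both overexpression libraries lay well under the lowest control.

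Of the 15, 8 had transcripts longer than those of 90% of members: DYNC1H1, HUWE1, GPRIN3, UBR4, SSR1, RNF213, MKI67 and HERC1. HUWE1, a HECT ubiquitin ligase, was at 18.3 and 18.9 against 38.1, 38.0 and 37.9. UBR4, an N-recognin ligase, was at 8.94 and 7.93 against 17.9, 19.1 and 22.4. HERC1 was at 5.23 and 3.99 against 9.87, 10.7 and 10.6, and RNF213 at 3.57 and 3.16 against 7.73, 9.43 and 10.3. DYNC1H1, the heavy chain of cytoplasmic dynein, was at 7.87 and 7.24 against 18.2, 17.1 and 17.5. MKI67, the proliferation antigen Ki-67, was at 18.6 and 17.2 against 36.7, 33.3 and 38.8, while SSR1, a subunit of the translocon-associated complex, was at 13.5 and 11.7 against 42.8, 29.5 and 45.2.

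**Figure D3:**
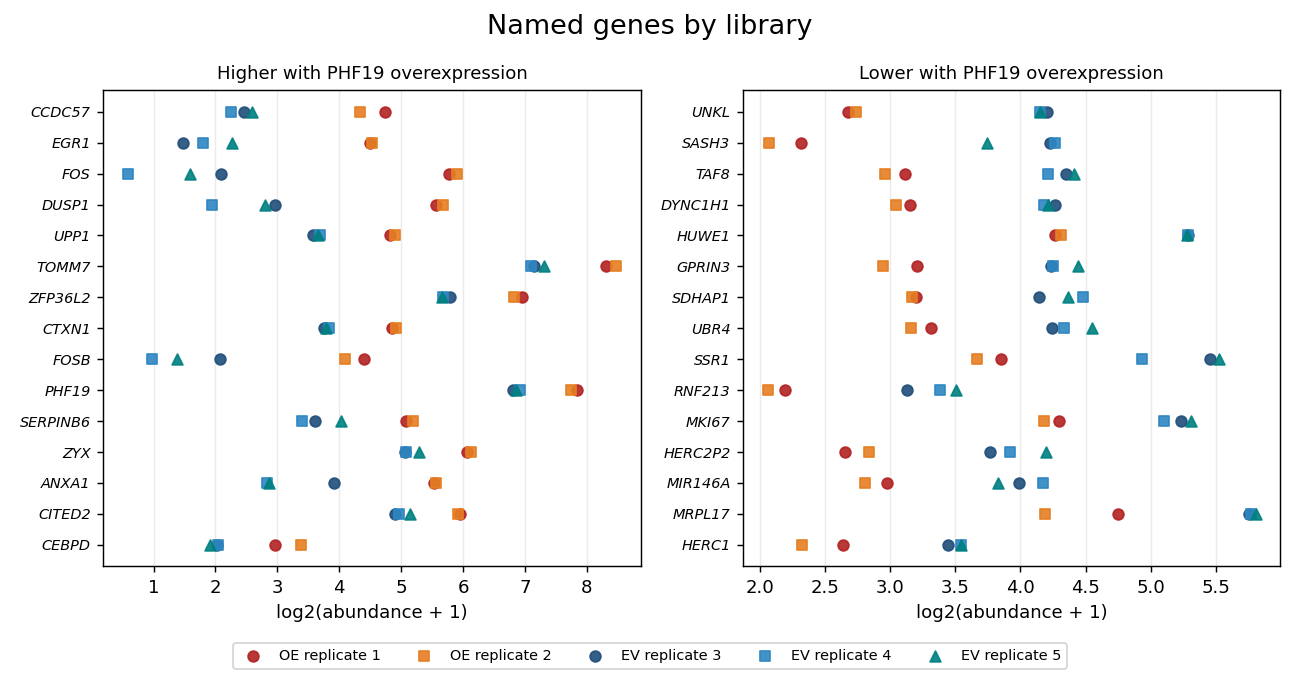
The 15 members named as higher (left) and the 15 named as lower (right) with overexpression, in order of limma p; each symbol is 1 library and the x axes are log2(abundance + 1). Genes were picked among members whose groups did not overlap. Both overexpression libraries therefore lie on the same side of all 3 controls in every gene.

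The difference between the groups moved with transcript length. A length (the longest GENCODE v29 transcript of the symbol) was found for 8240 members (95.1%). In the shortest of 10 equal bins the median log2 difference was 0.17 and in the longest it was -0.18; without empty vector replicate 5 these were 0.14 and -0.17. Groups did not overlap with lower values in 4.13% of the shortest bin and 34.7% of the longest, and with higher values in 31.4% and 6.43%. Spearman's rho between length and difference was -0.30 over the 8240 genes, given as a description. In the knockdown arm of the series, over 7721 genes, it was 0.12.

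Among the libraries, overexpression replicate 2 showed the steepest course, from a median deviation of 0.14 above the gene mean in the shortest bin to 0.18 below it in the longest; replicate 1 went from 0.07 to -0.06. Empty vector replicate 5 ran the opposite way, from -0.11 to 0.12. The 15 genes named as lower had a median length of 9669 bases, and 8 of them lay above the 90th percentile of members (7725 bases). For the 15 named as higher the median was 2354 bases, and for all members 3566. When a curve of deviation on length was subtracted in each library, 0 members passed with all 5 libraries. Without empty vector replicate 5, 1039 of 8240 passed, 592 higher (7.18%) and 447 lower (5.42%). All 30 genes named by rank of limma p remained past the threshold, but they had been picked on these same libraries. The part of RNA quality or library preparation in this trend was not tested.

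**Figure D4:**
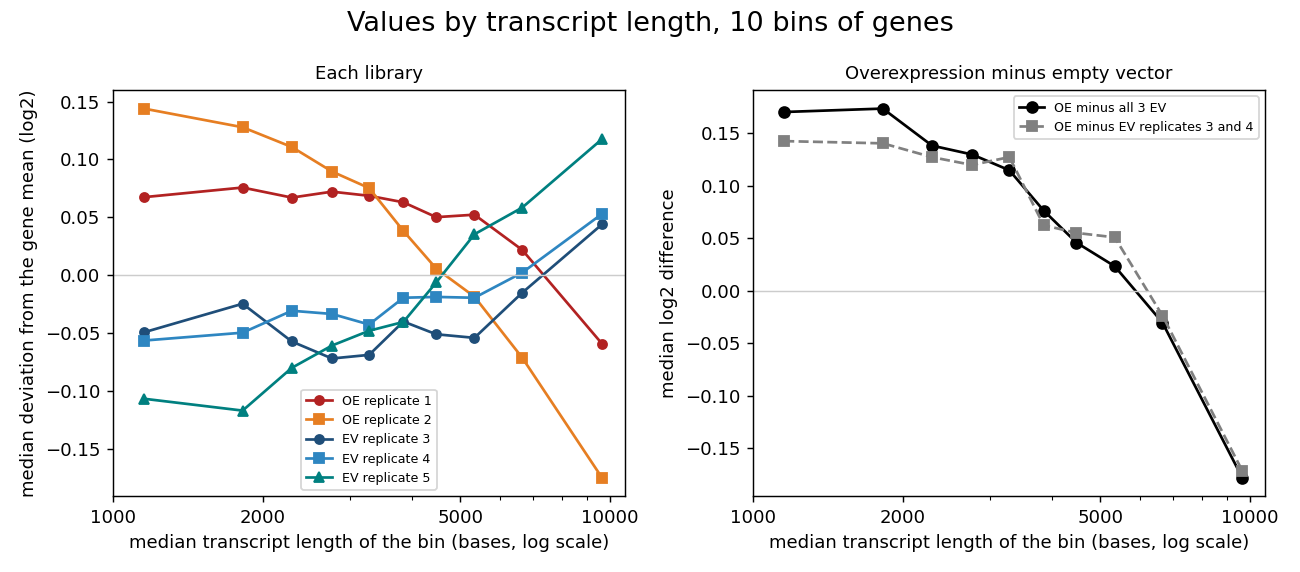
Median values in 10 bins of members by transcript length (x axes, bases, log scale). Left, each library's median deviation from the gene mean in log2 units; right, the median log2 difference of overexpression minus empty vector with all 3 controls (solid) and without replicate 5 (dashed), which falls from above 0.14 in the shortest bin to -0.17 or below in the longest.

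None of the PRC2 subunits passed the test with all 5 libraries. Of 13 listed, 11 were in the table and 9 were members; 7 of the 9 were lower on average, but only PHF19 had groups that did not overlap. The median log2 difference was -0.05 (0.00 without overexpression replicate 2). RBBP4, a histone-binding subunit, was at 26.5 and 35.9 against 72.9, 63.1 and 22.5, so replicate 5 lay below the overexpression libraries; it passed as lower without that replicate (log2 difference -1.11, limma adjusted p = 0.0256). MTF2, the paralog of PHF19, was at 7.87 and 6.45 against 7.83, 8.09 and 8.51, and JARID2, a PRC2 cofactor, at 4.66 and 4.09 against 4.37, 5.00 and 6.34.

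PRC1, the partner complex that reads H3K27 methylation, had 13 members, of which 5 did not overlap as higher and 2 as lower (38.5% and 15.4%, against 23.3% and 12.0% of all members). CBX6, a chromodomain reader, was at 23.7 and 21.4 against 15.3, 15.4 and 18.0, and PCGF2 at 31.0 and 43.9 against 21.7, 25.5 and 30.9. PHC3, a polyhomeotic subunit, was at 4.77 and 4.21 against 7.18, 7.91 and 10.2. Without empty vector replicate 5, CBX6 and PCGF5 passed as higher (limma adjusted p = 0.0367 and 0.0381) and PHC3 as lower. PCGF5 was at 12.2 and 10.5 against 7.27, 7.0 and 10.3. PHC3 no longer passed once the length trend was removed (limma adjusted p = 0.0708).

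Among 8 demethylases and methyltransferases of H3K27 and H3K36, 2 had groups that did not overlap, both lower. NSD1, an H3K36 methyltransferase, was at 6.37 and 5.75 against 10.1, 11.4 and 7.92, and SETD2, which trimethylates H3K36, at 9.55 and 8.54 against 11.6, 11.1 and 10.7. KDM4B, a demethylase, was at 17.9 and 19.3 against 7.43, 9.62 and 20.0, so that replicate 5 exceeded both overexpression libraries. Without replicate 5, KDM4B passed as higher and NSD1 as lower. Once the length trend was also removed, KDM4B still passed (limma adjusted p = 0.0324) and NSD1 did not (0.0507).

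Developmental regulators, the textbook targets of Polycomb silencing, were mostly outside the members. Of 81 listed, 27 were in the table and 16 were members, whose groups did not overlap in 4 as higher and 1 as lower (against 23.3% and 12.0% of all members). None passed with all 5 libraries or without empty vector replicate 5. MSX1, a homeobox gene, was at 4.46 and 3.63 against 2.39, 2.79 and 2.80, and TBX2, a T-box gene, at 1.97 and 1.70 against 0.759, 0.941 and 1.35. HOXB13 was at 0.961 and 0.827 against 1.37, 1.74 and 1.41. The members' median log2 difference was 0.16.

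Kinases reported to phosphorylate EZH2 numbered 10 members, of which 4 did not overlap as higher and 2 as lower (40.0% and 20.0%, against 23.3% and 12.0% of all members). CDK1, the mitotic kinase, was at 66.7 and 60.9 against 82.1, 78.7 and 90.1, and ATM, the DNA damage kinase, at 6.81 and 5.64 against 10.7, 11.4 and 14.7. AKT1 was at 34.4 and 47.4 against 31.9, 29.3 and 34.4, with overexpression replicate 1 just above the highest control. MAPK14, the p38 kinase, was at 32.9 and 36.8 against 25.9, 27.4 and 31.7. None passed as higher without empty vector replicate 5 and only ATM as lower (log2 difference -0.75, limma adjusted p = 0.0304). With the length trend also removed, ATM and CDK1 passed as lower (log2 difference -0.51 and -0.47, limma adjusted p = 0.0462 for each). Transcript abundance says nothing of kinase activity or of EZH2 phosphorylation, which were not measured.

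Of 17 feedback regulators and ETS outputs of ERK signalling, 6 did not overlap as higher and 1 as lower, with a median log2 difference of 0.10 beside 0.07 for all members. DUSP5, a nuclear ERK phosphatase, was at 170 and 196 against 145, 130 and 92.5, and DUSP4 at 3.18 and 3.40 against 2.25, 2.23 and 2.36. ETS1 was at 28.3 and 25.2 against 36.3, 36.1 and 35.2. Only ELK3 passed without empty vector replicate 5 (log2 difference 0.63, limma adjusted p = 0.0357).

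Of 15 mRNA decay factors, 6 did not overlap as higher and 1 as lower (40.0% and 6.67%, against 23.3% and 12.0% of all members), and 4 passed as higher without empty vector replicate 5. Their median of 0.14 changed sign under quantile normalisation. Of 18 NF-kB genes, 3 did not overlap as higher (16.7%, below the share of all members) and 1 as lower (5.56%), with a median of 0.19; 3 passed as higher without replicate 5, and 1 with the length trend removed. ZC3H12A, the endonuclease Regnase-1, was at 20.1 and 18.9 against 13.7, 13.2 and 13.7. RELA, the NF-kB subunit p65, was at 56.9 and 58.7 against 39.3, 42.3 and 36.6, and CYLD, a deubiquitinase that restrains the pathway, at 10.4 and 12.7 against 5.93, 7.10 and 8.60.

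Survival genes showed no member with separated groups. BCL2L1, which encodes BCL-XL, was at 11.1 and 12.7 against 8.80, 11.6 and 7.69 (log2 difference 0.34, SE 0.203, limma adjusted p = 0.509), and CFLAR, the caspase-8 inhibitor, at 20.4 and 20.4 against 12.6, 4.64 and 21.8. Of 7 BCL2 family and related survival genes, none passed with or without empty vector replicate 5. Of 19 pro-apoptotic genes, 4 did not overlap as higher and 1 as lower (21.1% and 5.26%), and 3 passed as higher without replicate 5. TNFRSF10B, the TRAIL receptor DR5, was at 13.9 and 12.7 against 6.16, 7.74 and 11.9, and BCL2L11, the BH3-only protein BIM, at 22.9 and 23.4 against 14.5, 15.6 and 22.1. Both were among the 3, and replicate 5 lay just below the overexpression libraries in each.

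CDKN1A, the CDK inhibitor p21, was at 11.9 and 11.0 against 2.45, 4.66 and 9.90. CDKN2D, the inhibitor p19, was at 10.4 and 10.3 against 2.96, 4.41 and 12.3. Of 13 p53 targets, 3 did not overlap as higher and none as lower; their median in empty vector replicate 5 was 0.59 above the other controls, and 4 passed as higher without it. Of the 13 D cyclins, CDK4/6, RB and CDK inhibitor genes, 2 did not overlap as higher and none as lower, and 3 passed as higher without replicate 5.

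Replication genes called without empty vector replicate 5 were mostly lower. Of 36 S phase members, 4 did not overlap as higher and 2 as lower with all libraries, and without replicate 5, 1 passed as higher and 9 as lower (12 lower with the length trend removed). The median log2 difference was -0.06 with all libraries and -0.31 without replicate 5, in which the list's median was 0.62 below the other controls. GINS3, a subunit of the replicative helicase, was at 11.9 and 11.6 against 21.5, 19.1 and 15.7, and POLE2, a subunit of DNA polymerase epsilon, at 7.42 and 7.28 against 12.5, 14.1 and 9.39. RPA1, which binds single-stranded DNA, was at 209 and 167 against 115, 120 and 124. Of 34 G2 and mitosis genes, 8 did not overlap as higher and 3 as lower (23.5% and 8.82%), and 1 passed in each direction without replicate 5. CENPF, a kinetochore protein, was at 24.3 and 20.1 against 39.6, 37.1 and 42.8, and CKS1B, a CDK cofactor amplified in myeloma, at 450 and 515 against 325, 352 and 349.

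For cytosolic ribosomal protein genes the direction depended on the scaling. Of 48 members, 34 had groups that did not overlap, all higher, and 20 passed without empty vector replicate 5, all higher (12 with the length trend removed). Their median log2 difference was 0.35, which quantile normalisation turned to -0.01 and median-of-ratios scaling to 0.27; the summed abundance of the table was 498485 and 502349 with overexpression and 425155 to 426112 with empty vector. Their median transcript length was 1183.5 bases. RPLP1, an acidic stalk protein of the large subunit, was at 5097 and 5692 against 3238, 2952 and 3742, and RPS4X, of the small subunit, at 1758 and 1771 against 1087, 1076 and 1281.

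The lists of MYC targets and ribosome biogenesis, of proteasome subunits and of heat shock chaperones depended on empty vector replicate 5. Their medians in that library were 1.12, 0.79 and 0.55 below the other controls on the log2 scale. With all libraries, the groups did not overlap in 2 of 26, 5 of 28 and 2 of 15, all higher. The 2 of 26 were BOP1 and MYC itself, which is also on the immediate early list. Without replicate 5 the members that passed were 8, 6 and 5 lower, beside 2 higher in the heat shock list. CHORDC1, a cochaperone of HSP90, was at 22.8 and 21.7 against 103, 69.4 and 20.6, and UTP20, of the small subunit processome, at 3.82 and 3.65 against 10.6, 9.38 and 2.76. In both, replicate 5 lay below the overexpression libraries. HSF1, the heat shock transcription factor, was at 53.3 and 56.3 against 30.2, 30.6 and 34.8, with replicate 5 beside the other controls.

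Genes of the integrated stress response, which ATF4 drives when eIF2 is phosphorylated, numbered 30 members. Of these, 29 had higher means, 17 did not overlap as higher and none as lower, and 9 passed without empty vector replicate 5 (3 with the length trend removed). The median log2 difference was 0.46 (0.74 without replicate 5, in which the list lay 0.56 above the other controls). TRIB3, a pseudokinase target of ATF4, was at 29.2 and 35.8 against 9.47, 13.9 and 19.9, CEBPB at 19.9 and 20.8 against 6.04, 10.8 and 12.4, and WARS, a tRNA synthetase, at 108 and 121 against 57.0, 74.5 and 80.5. Among 24 ER chaperone and unfolded protein response genes, 7 did not overlap as higher and 1, SSR1, as lower, and 2 passed as higher and 1 as lower without replicate 5. P4HB, a disulfide isomerase, was at 454 and 495 against 296, 341 and 392.

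HIF1A, the oxygen-regulated subunit of hypoxia-inducible factor, was at 6.18 and 6.11 against 6.78, 7.42 and 10.2, groups that did not overlap (log2 difference -0.34, SE 0.201, limma adjusted p = 0.507). Of the 19 members of the HIF and hypoxia target list, which includes HIF1A, 3 did not overlap as higher (15.8%, below the 23.3% of all members). The 1 that did not overlap as lower was HIF1A itself. Without replicate 5, 8 passed as higher (7 with the length trend removed); in that library the list's median was 1.15 above the other controls. ADM, adrenomedullin, was at 154 and 163 against 102, 94.0 and 88.0, while MXI1, a MYC antagonist, was at 21.3 and 29.7 against 9.89, 10.3 and 23.6. Of 16 glycolysis genes, 7 did not overlap as higher and none as lower, and 7 passed as higher without replicate 5 (4 higher and 1 lower with the length trend removed). PGK1 was at 605 and 609 against 392, 402 and 521, and PKM at 1671 and 1757 against 1329, 1345 and 1206; PKM without replicate 5, and GAPDH with or without it, changed sign under quantile normalisation.

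Of 14 pyrimidine and nucleoside genes, 6 did not overlap as higher and none as lower, and 1 passed in each direction without replicate 5. Beside UPP1, the 6 included DCTD, dCMP deaminase, at 56.3 and 44.2 against 35.5, 35.3 and 32.6, and TYMS, thymidylate synthase, at 108 and 153 against 84.9, 102 and 64.7. Of 24 cholesterol and fatty acid genes, 11 did not overlap as higher and 1 as lower, and 5 passed as higher and 1 as lower without replicate 5. SREBF2, their master regulator, was at 94.8 and 94.4 against 47.0, 53.9 and 75.3. Of 38 nuclear genes of oxidative phosphorylation, 15 did not overlap as higher and none as lower, with a median of 0.20. Quantile normalisation lowered that median to 0.04, and removal of the length trend also gave 0.04. Without replicate 5, 4 passed as higher (10.5%, against 11.0% of all members). With the length trend also removed, 2 of the 29 with a length passed as higher and 1 as lower, and the median was -0.03. ATP5D was at 199 and 252 against 142, 122 and 150.

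Of 17 interferon-stimulated genes, 7 did not overlap as higher and 1 as lower (41.2% and 5.88%, against 23.3% and 12.0% of all members). As higher, 4 passed without empty vector replicate 5 (23.5%, against 11.0%), and 2 with the length trend removed. IFI6 was at 9.25 and 8.21 against 4.24, 4.07 and 4.76, and IFI35 at 16.0 and 17 against 10.6, 7.75 and 9.41. IRF7, which amplifies the interferon response, was at 4.54 and 6.0 against 1.54, 3.02 and 2.51. The median log2 difference was 0.32 beside 0.07 for all members.

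Genes tied to myeloma drug response gave 1 member not overlapping as higher and 3 as lower, of 15, and 1 passed as higher and 2 as lower without replicate 5. IKZF3, the lymphoid factor degraded under lenalidomide, was at 18.9 and 18.2 against 24.0, 26.3 and 23.3, and CUL4A, a scaffold of the cereblon ligase family, at 41.1 and 38.1 against 64.2, 58.1 and 44.0. ABCC5, a drug efflux pump, was at 13.2 and 11.8 against 10.9, 10.5 and 8.48, and ABCC4 at 8.44 and 7.70 against 11.1, 9.84 and 8.67. Of these 4 named genes, only CUL4A passed without replicate 5 (limma adjusted p = 0.0280).

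**Figure D5:**
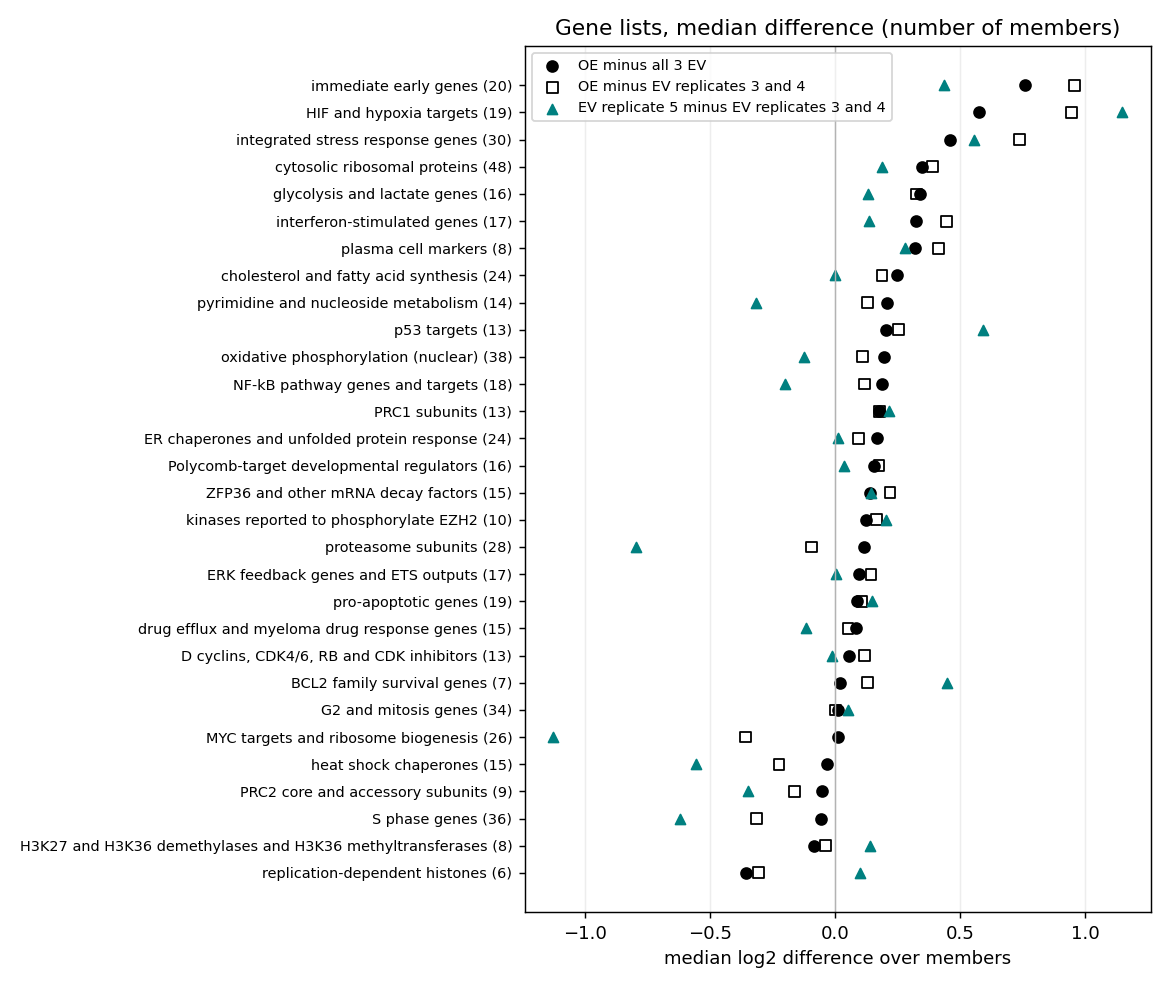
Median log2 difference over the members of each gene list with at least 5 members (number in brackets); filled circles, overexpression minus all 3 controls; open squares, the same without empty vector replicate 5; triangles, empty vector replicate 5 minus the mean of replicates 3 and 4. With all libraries immediate early genes have the highest median (0.76). Between circle and square, HIF and hypoxia targets go from 0.58 to 0.95, and MYC targets and ribosome biogenesis genes from 0.01 to -0.36.

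The series also holds the opposite perturbation, PHF19 shRNA (n = 3) against scramble (n = 3) in the same line, in a table normalised separately. That comparison called 613 of 10854 genes, 471 higher (4.34%) and 142 lower (1.31%). With the replicate number as a block it called 916 higher (8.44%) and 412 lower (3.80%). PHF19 was lower with the shRNA (log2 difference -0.44, limma adjusted p = 0.146, and 0.0435 with the block).

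Most genes named above were not called in the knockdown. Of the 30 genes named by rank of limma p, 27 were tested there, 1 was called, and 5 were called with the block. ZYX was higher in both arms (knockdown log2 difference 0.58, limma adjusted p = 0.0268). FOS was lower with the shRNA (-0.73, limma adjusted p = 0.158, and 0.0439 with the block) and higher with overexpression. Its knockdown levels were low, at 2.42, 0.42 and 0.81 with the shRNA against 2.92, 1.96 and 2.44. FOSB, JUN and DUSP1 differed by -0.05, -0.07 and -0.11 in the knockdown and were not called, with or without the block. Of the 20 immediate early genes, 3 were called higher and 2 lower there with the block. CTXN1, higher with overexpression, was lower with the shRNA (-0.57, limma adjusted p = 0.0935, and 0.0318 with the block). ATF3 and PPP1R15A, immediate early genes that also belong to the integrated stress response, were higher with the shRNA (1.15, limma adjusted p = 0.0171, and 0.62, limma adjusted p = 0.0223). Of the integrated stress response list, 26 of 30 members were called higher in the knockdown and none lower, against 9 and 0 with overexpression without empty vector replicate 5.

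Over the members, genes called both in the knockdown and in overexpression without empty vector replicate 5 had mostly the same sign. Of the 874 members called higher without empty vector replicate 5 and tested in the knockdown, 113 were called higher there (12.9%, or 35.6% of the knockdown's higher members) and 8 lower (0.915%). Over all 7926 members tested in both, 4.0% were called higher and 1.36% lower in the knockdown. Of the 343 called lower, 18 were lower there too (5.25%, or 16.7% of the knockdown's lower members) and 5 higher (1.46%). By groups that did not overlap with all 5 libraries, the pattern was weaker for higher members and absent for lower ones. Of the 1911 such higher members tested in the knockdown, 6.28% were called higher there and 0.994% lower. Of the 886 such lower members, 12 were called lower there (1.35%) and 17 higher (1.92%). With the block, 254 members had the same sign in both arms and 36 the opposite, against 131 and 13 without it. The arms share no library.

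Of the 13 members with opposite signs, 11 had groups that did not overlap with empty vector replicate 5 included and a mean of at least 5. They were chosen after their values were seen. Higher with overexpression and lower with the shRNA were LHFP, HSPB1, CCR1, GNPDA1, PGAM1, NDRG1 and JUP; the reverse held for LIN7A, PRKCB, CNTNAP1 and SPG7. HSPB1, the small heat shock protein HSP27, was at 582 and 630 with overexpression against 411, 412 and 447, and its knockdown log2 difference was -0.75 (limma adjusted p = 0.0154). CCR1, a chemokine receptor that myeloma cells are known to express, was at 69.9 and 69.6 against 52.8, 48.1 and 41.0 (knockdown -0.50, limma adjusted p = 0.0499). LIN7A, a scaffold protein, was at 5.91 and 3.08 against 12.5, 13.6 and 11.5 (knockdown 1.02, limma adjusted p = 0.0178).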

How the data were processed

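RNA-seq libraries of ARP1 cells were described by abundances that the authors deposited after normalisation for gene length and depth, recorded here as FPKM, although the header leaves the unit open and RPKM or TPM would look alike. Per the submitters' processing notes, TopHat was the aligner and hg19 the build; which quantifier and annotation followed is not given. The authors' p-value column was not used. The table carries no counts and its low values showed no steps of whole reads, so the depth behind each value is unknown and it has no counting interval or floor.

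Of 11062 genes, 2127 were listed at 0 in at least 1 library and 270 were above 0 but under 1 in at least 4, which left 8665. Among these, 143 were under 1 in every library of 1 group, so they were kept through the other group alone. The second-highest value of a gene was 1.00 just inside the limit and 0.999 just outside it. An exact 0 may be a failed estimate, since the genes at 0 in all 5 libraries, 78 in all, include RPL3 and RPL4.

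Groups were compared by limma (version 3.58.1, R 4.3.3), with a variance trend and robust variances, on log2(value + 1) over all 8665 genes, two-sided, with Benjamini-Hochberg adjustment and a threshold of 0.05. The knockdown table was fitted alone in the same way over 10854 genes, with 24 symbols that had turned into dates left out. The fits were tested on simulated data. The smallest two-sided exact permutation p of a single value in 2 against 3 libraries is 0.1, so no such test was used.

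The members, the 37 gene lists and the tests were chosen with earlier results of these data known. Named genes were PHF19, EZH2, BCL2L1 and HIF1A (MCL1 is not in the table). To these were added the 15 higher and 15 lower members with the smallest p among those with groups that did not overlap, a mean of at least 5 and a log2 difference of at least 0.58, and up to 4 members per list by p, without uncharacterised loci or immunoglobulin segments. Transcript lengths came from GENCODE v29 and promoter sequences from RefSeq (GRCh38.p14), another build than the files', and were matched by symbol. Python 3.11.15 with pandas 2.3.3 and matplotlib 3.10.9 served for the rest.

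In the knockdown arm the numbers 1 to 3 occur in both groups. Deviations from the group means correlated at 0.327, 0.272 and 0.285 for equal numbers and at -0.267 to 0.0818 for the others. No label states a pairing, which was therefore accepted from these correlations, and values with the replicate block are given where they change a call.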

Additional observations from a re-analysis of the deposited data

How the results depend on the processing

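For overexpression against empty vector, the count of calls was 0 with limma on all 5 libraries, and 0 with quantile normalisation, median-of-ratios scaling, pseudocounts of 0.1 and 0.5, no trend and robust variances, either filter on low values, a 1.5-fold minimum and the length trend removed. At an unadjusted p under 0.05, limma gave 1201 genes. It was 94 when genes at 0 in some library were kept (63 higher, 31 lower) and 2453 with limma's library weights (1628 higher, 825 lower), which gave empty vector replicate 5 a weight of 0.143. Leaving out each library in turn gave 0 to 1339 calls; 1339 came without empty vector replicate 5 and 0 without any of the other 4. Without that replicate the count was 1281 with quantile normalisation, 1239 with median-of-ratios scaling and 1039 with the length trend removed; these 3 and the length correction with all libraries were chosen after seeing the data. Of 33 named genes, 30 passed in each of these 4 fits without replicate 5 and with library weights, 11 with zeros kept and 0 otherwise. All but EZH2, BCL2L1 and HIF1A had been picked by p on the same libraries. EZH2 alone changed sign, to 0.00341 without overexpression replicate 2 and to 0.0292 without empty vector replicate 3; leaving out each library moved its log2 difference between -0.16 and 0.03.

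No paired analysis was possible because the overexpression libraries are numbered 1 and 2 and the empty vector libraries 3, 4 and 5. In the knockdown arm 613 genes were called, 1328 with the replicate block, 594 with quantile normalisation and 612 with median-of-ratios scaling. Quantile normalisation split the calls into 385 higher and 209 lower, and median-of-ratios scaling into 415 and 197, against 471 and 142. Leaving out each library gave 65 to 645 calls (88, 65 and 217 without scramble replicates 1, 2 and 3, and 645, 327 and 204 without shRNA replicates 1, 2 and 3). Depth is unknown, so what it limits cannot be stated.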

Other observations

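Empty vector replicate 5 differed from the other controls most in stress and nutrient genes. These genes were chosen after their values were seen. TXNIP, a glucose-responsive inhibitor of thioredoxin, was at 128 in replicate 5 and at 14.0 and 11.3 in replicates 3 and 4, with the overexpression libraries between them at 70.1 and 74.2. DDIT4, an inhibitor of mTORC1 induced by stress, was at 494 against 35.5 and 154, and at 154 and 167 with overexpression. P4HA1, a collagen prolyl hydroxylase induced by hypoxia, was at 102 against 12.8 and 23.2, and at 77.7 and 78.4 with overexpression. PSMA5, a proteasome subunit, was at 20.0 in replicate 5 against 86.9 and 96.1, and at 90.8 and 80.9 with overexpression.

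Genes listed at 0 in some libraries include markers of the plasma cell itself. TNFRSF17, the receptor BCMA, was listed at 86.9 and 91.9 with overexpression and at 105 in empty vector replicate 5, and at 0 in replicates 3 and 4. MZB1, an ER protein of antibody-secreting cells, was listed at 336 and 410 with overexpression and at 422 in replicate 5, and at 0 in replicates 3 and 4. RPSA was listed at 1932 in overexpression replicate 1 and at 0 in the other 4 libraries, and HSP90AB1 at 1064 in empty vector replicate 3 and at 0 elsewhere. In all, 958 genes were at 0 in exactly 1 library, and the median of their level in the other 4 was 12.2. A further 52 were at 0 in both overexpression libraries and above 0 in all 3 controls, and 82 were the reverse.

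IGJ, the joining chain of IgA, was at 9837 and 2623 with overexpression and at 1686, 1939 and 1700 with empty vector, so the overexpression libraries differed from each other more than the nearer one did from the controls.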
